A study of Mus musculus with 2 samples.

Results

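Smooth muscle contractile genes were examined in teratomas, the mixed tumours that embryonic stem cells form after transplantation. The 10 genes were picked by symbol as a known set, with earlier results of these data known, from the 45777 genes of the expression table: Acta2, Actg2, Myh11, Mylk, Tagln, Cnn1, Lmod1, Smtn, Des and Myocd. All 10 had reads. There was 1 library from teratomas of wild-type E14 cells, a mouse embryonic stem cell line, and 1 from teratomas of E14-Sox2TA/WT cells. The latter carry the T258A mutation, made with CRISPR/Cas9, on 1 allele of Sox2, and descend from colonies each grown from 1 cell. For each group, 3 BALB/c-nu mice were inoculated under the skin, and tumours were taken on day 14. Values given as a pair are for E14 first and E14-Sox2TA/WT second. Whether a library came from 1 tumour or several, and from which clone, is not given in the sources used here. The host mouse can supply vessels and stroma, and the files do not separate its transcripts from those of the inoculated cells.

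The libraries held 50529171 reads on genes for E14 and 49030281 for E14-Sox2TA/WT. Sox2 itself had 14585 and 8623 reads, at a TPM (transcript abundance scaled for length and library size) of 246 and 130, and the table does not separate its alleles. Tubb3, Col2a1 and Foxa2, which mark derivatives of the 3 germ layers, were present in both libraries but at unlike levels. Tubb3 had a TPM of 1722 and 170, 10.1-fold lower (9.88 to 10.35) in E14-Sox2TA/WT. Col2a1 was at 58.0 and 74.8, and Foxa2 at 35.3 and 57.2. The parental E14 line is male, but the Y-linked gene Eif2s3y had 2382 reads in E14 and 0 in E14-Sox2TA/WT, and the cause was not tested. Mitochondrial genes took 5.17% and 9.70% of the TPM. TPM ratios were 0.871 times the FPKM ratios throughout, and the median log2 ratio of all genes with a TPM of at least 10 was -0.18 on TPM and 0.01 on FPKM. With 1 library per group there is no replicate check and no test. The intervals given with ratios are exact (Clopper-Pearson, 95%) for the counts and were carried over to the TPM ratio. They cover counting error and compare these libraries, not the conditions.

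Smooth muscle cells contract when myosin filaments pull on actin filaments anchored at dense bodies. Calcium acts through calmodulin on myosin light chain kinase, which phosphorylates the regulatory light chain, whereas striated muscle is switched through troponin on the thin filament. Most of the contractile genes are driven by serum response factor (Srf) bound to a short DNA element called the CArG box, with myocardin (Myocd) as its partner. Acta2 and Tagln come on early in the lineage and are also found in pericytes, myofibroblasts and embryonic heart and skeletal muscle. Myh11, Cnn1, Lmod1 and Smtn mark more differentiated smooth muscle.

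To show what such a control region looks like, the promoter windows of the members in the RefSeq table of GRCm38.p6 were read, from 250 bases before to 50 bases after a start site. The table gave windows for 6 of the 10 genes, namely Acta2, Cnn1, Des, Lmod1, Mylk and Smtn. Those of Actg2, Tagln, Myh11 and Myocd were not used here. The window of Acta2 (chr19:34255324-34255623, minus strand) and that of Cnn1 (chr9:22099003-22099302, plus strand) are printed 5′ to 3′, the first as the most abundant member over both libraries and the second as one of the low ones. Capitals mark CArG boxes with at most 1 base other than A or T in the middle stretch.
Acta2: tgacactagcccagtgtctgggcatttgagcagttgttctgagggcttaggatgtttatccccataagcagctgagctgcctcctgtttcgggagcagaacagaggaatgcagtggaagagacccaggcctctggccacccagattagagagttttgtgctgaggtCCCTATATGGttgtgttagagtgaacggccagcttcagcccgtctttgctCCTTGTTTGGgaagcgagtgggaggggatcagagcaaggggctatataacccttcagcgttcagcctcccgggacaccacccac
Cnn1: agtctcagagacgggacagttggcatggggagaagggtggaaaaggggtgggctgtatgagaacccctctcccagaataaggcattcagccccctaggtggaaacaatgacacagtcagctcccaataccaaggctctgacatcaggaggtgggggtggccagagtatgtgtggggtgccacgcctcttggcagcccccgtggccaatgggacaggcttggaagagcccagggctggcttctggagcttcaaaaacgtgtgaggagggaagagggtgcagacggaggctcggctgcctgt
No member's window held an exact CArG box, which 1.63% of the 32851 promoter windows in the table hold. The relaxed form was found in the Acta2 window at positions -84 and -34 from the start site, and in 9.98% of all windows. The box is its own reverse complement in form, so 1 search covers both strands. The other 5 windows held none of these letters, which says nothing of elements elsewhere. RefSeq places the 5′ end of Acta2 at 34255585, upstream of the start used for its window, so the window belongs to 1 of its starts. The Mylk window, from 34784700 to 34784999, likewise lies inside the gene, whose 5′ end is at 34745199.

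Levels of the contractile genes were low and uneven. In the E14 library only Acta2, Smtn, Tagln and Des had a TPM of at least 10, and in the E14-Sox2TA/WT library only Tagln, Acta2 and Smtn did. The other 6 genes had a TPM under 10 in both. The 10 genes summed to a TPM of 95.2 in E14 and 154 in E14-Sox2TA/WT, 1.62 times as much, and Tagln made up most of the difference. Without Acta2 and Tagln the sums were 31.1 and 38.5. Acta2 held 51.5% of the members' TPM in E14 and 34.1% in E14-Sox2TA/WT, where Tagln held the largest share at 40.95%. In bulk tissue, more cells of a type and more RNA per cell cannot be told apart.

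**Figure D1:**
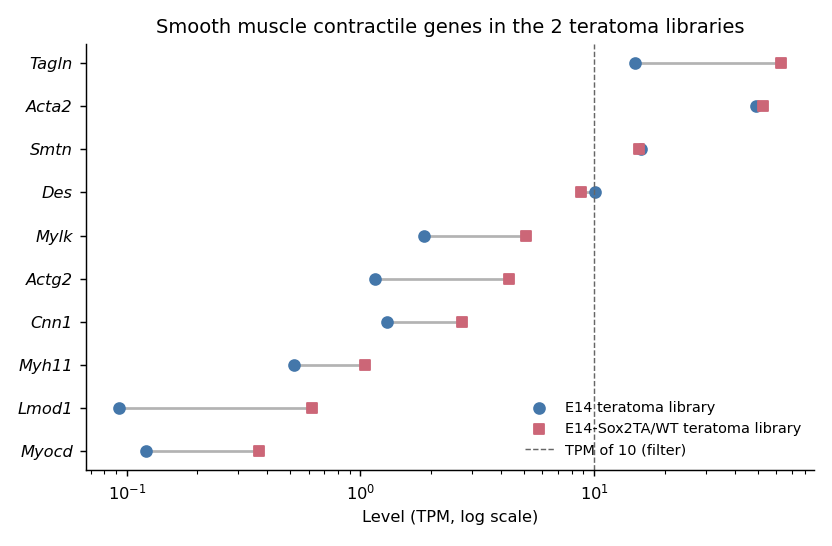
Level of each smooth muscle contractile gene (TPM, log scale) in the E14 library (circles) and the E14-Sox2TA/WT library (squares), joined by a line, with the filter at a TPM of 10 dashed. Tagln moves from 15.0 to 63.2 while Acta2 stays near 50, and the 6 genes left of the filter in both libraries all sit further right in E14-Sox2TA/WT.

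The contractile actins were the first pair compared. Acta2 (NCBI gene 11475, chromosome 19 from 34240336 to 34255585, GRCm38), the alpha actin of vascular smooth muscle, had 2966 reads in E14 and 3615 in E14-Sox2TA/WT. Its level was a TPM of 49.04 and 52.6, a ratio of 1.07 (1.02 to 1.13). Acta2 thus had nearly the same level in both libraries on TPM. On read counts scaled by library total its ratio was 1.256 (1.196 to 1.319). Actg2 (NCBI gene 11468, chromosome 6 from 83512909 to 83536251), the gamma actin typical of visceral smooth muscle, had 37 and 153 reads. Its TPM was 1.15 and 4.32, a ratio of 3.76 (2.61 to 5.55). There was 42.7 times as much Acta2 as Actg2 in the E14 library and 12.2 times as much in the E14-Sox2TA/WT library. Few stretches of sequence were shared with other genes, as 0 of the 1592 stretches of 50 nt in Actg2 transcripts and 7 of the 2146 in Acta2 transcripts occur in a transcript of another gene.

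The smooth muscle actins lay far below the cytoplasmic ones, while Acta2 was above the skeletal form in both libraries. The cytoplasmic actins Actb and Actg1 had a TPM of 1648 and 1987 in the E14 library and 1973 and 1566 in the E14-Sox2TA/WT library. Among the 4 muscle actins, the cardiac form Actc1 was the most abundant in the E14 library, at 94.7 against 31.6, and the skeletal form Acta1 had 33.6 against 18.2. Actc1 was 3.002-fold lower (2.81 to 3.21) in the E14-Sox2TA/WT library. Acta2 was thus the most abundant muscle actin in E14-Sox2TA/WT. It held 27.5% of the muscle actin TPM in E14 and 49.3% in E14-Sox2TA/WT, while its own TPM differed little. Actg2 held 0.644% and 4.05%.

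The motor and its kinase were both low. Myh11 (NCBI gene 17880, chromosome 16 from 14194527 to 14292188), the myosin heavy chain specific to smooth muscle, had 94 and 209 reads. Its TPM was 0.521 in E14 and 1.05 in E14-Sox2TA/WT, a ratio of 2.01 (1.57 to 2.59) whose interval spans 2-fold. Mylk (NCBI gene 107589, chromosome 16 from 34745199 to 35002436) encodes myosin light chain kinase, and its long form is also made outside muscle. It had 356 and 1083 reads and a TPM of 1.87 and 5.10, a ratio of 2.73 (2.42 to 3.09). The whole interval of Mylk lay above 2-fold. The kinases of striated muscle, Mylk2 and Mylk3, and Mylk4 stayed below a TPM of 1 in both libraries.

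Myh11 was 0.263% of the TPM of 11 class II myosin heavy chains in E14 and 1.02% in E14-Sox2TA/WT. Non-muscle Myh10, which is abundant in neural tissue, held 50.9% and 37.2%, at a TPM of 101 and 38.3. Non-muscle Myh9 had 38.2 and 44.2, and Myh14 had 7.25 and 7.02. The developmental skeletal chains were lower in E14-Sox2TA/WT, with Myh3 at 24.7 and 5.34 and Myh8 at 19.6 and 1.90. Smooth muscle myosin heavy chain thus stayed a trace in both libraries next to the non-muscle forms.

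**Figure D2:**
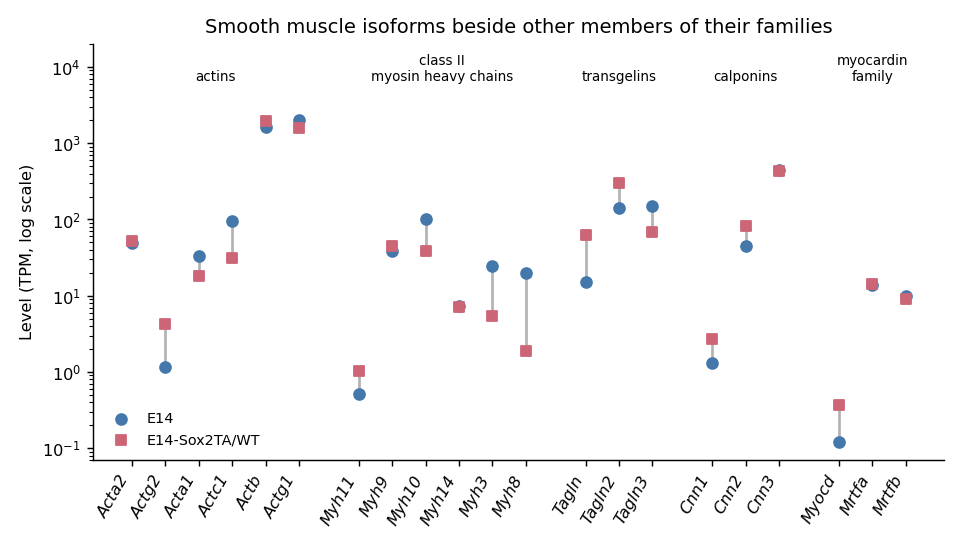
Level (TPM, log scale) of smooth muscle isoforms and other members of their families in the E14 library (circles) and the E14-Sox2TA/WT library (squares), with 6 of the 11 myosin heavy chains shown. Myh11, Actg2, Cnn1 and Myocd lie below the other plotted members of their families in both libraries, Myh11 only just below Myh8 in E14-Sox2TA/WT, and the skeletal chains Myh3 and Myh8 lie lower in E14-Sox2TA/WT.

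The actin-binding proteins split into a gene with a large difference, a pair of low genes and a gene with nearly equal levels. Tagln (NCBI gene 21345, chromosome 9 from 45929628 to 45936058) encodes transgelin, also called SM22-alpha, which binds and bundles actin filaments. It had 573 reads in E14 and 2695 in E14-Sox2TA/WT. Its TPM was 15.0 and 63.2, a ratio of 4.21 (3.85 to 4.62), and it stood at rank 8922 of 24602 genes with a TPM above 0 in E14 and rank 2451 of 27828 in E14-Sox2TA/WT. Tagln was thus level with Acta2 in the E14-Sox2TA/WT library, where the ratio of Acta2 to Tagln was 0.833, against 3.27 in the E14 library. In GENCODE, 67.9% of the exonic bases of Tagln overlap genes on the opposite strand, Pcsk7 and Gm48529, and the sources used here do not say if reads were counted by strand. Of the 1983 stretches of 50 nt in Tagln transcripts, 58.35% occur in these genes, 1098 of them in Gm48529. Pcsk7 had 1922 and 1669 reads, and reads of Gm48529 were not analysed here. The part of such overlapping reads in the values of Tagln was not tested.

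Of the other transgelins, Tagln2, found in many cell types, was 2.18-fold higher (2.11 to 2.26), at a TPM of 140 and 305. Tagln3, a neuronal form, was 2.22-fold lower (2.104 to 2.34), at 150 and 67.7. The 3 genes of the family therefore did not move together. Tagln made up 4.92% of the family's TPM in E14 and 14.5% in E14-Sox2TA/WT.

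Cnn1 (NCBI gene 12797, chromosome 9 from 22099221 to 22109221) encodes calponin 1, which binds actin and slows the myosin ATPase. It had 63 and 129 reads and a TPM of 1.30 and 2.73, a ratio of 2.104 (1.55 to 2.89). The interval of Cnn1 spans 2-fold. Its relatives were far more abundant, with Cnn2 at 44.8 and 82.5 and Cnn3, the form widespread in embryonic and neural tissue, at 445 and 438. Lmod1 (NCBI gene 93689, chromosome 1 from 135324813 to 135368065) encodes leiomodin 1, which seeds actin filaments in smooth muscle. It had only 9 and 66 reads, and its TPM of 0.0924 and 0.619 gave the highest ratio of the members, 6.70, with a wide interval of 3.33 to 15.3. Lmod3, its skeletal relative, had 1.49 and 0.591, and Lmod2 stayed below 1.

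Smtn (NCBI gene 29856, chromosome 11 from 3517522 to 3539292) encodes smoothelin, a protein of contractile filaments. Its 1265 and 1393 reads gave a TPM of 15.9 and 15.6, a ratio of 0.977 (0.904 to 1.06). The counting interval of Smtn includes 1 on TPM. On read counts scaled by library total the ratio was 1.135 (1.05 to 1.23), and the interval lay above 1. Of its exonic bases, 16.3% overlap antisense genes, of which Gm11946 had 0 and 13 reads. Smtnl2 was at 9.10 and 18.4, and Smtnl1 had 3 and 151 reads.

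Des (NCBI gene 13346, chromosome 1 from 75360292 to 75368579) encodes desmin, the intermediate filament of all muscle types. It had 747 and 725 reads and a TPM of 10.1 in E14 and 8.79 in E14-Sox2TA/WT, a ratio of 0.868 (0.783 to 0.963). On read counts scaled by library total the ratio was 1 (0.902 to 1.11), so its distance from 1 depended on the scaling. Other filament proteins of its class were at 1530 and 914 for Vim, 137 and 76.4 for the astrocyte protein Gfap, and 5.67 and 23.0 for Prph of peripheral neurons. Desmin was thus the member with the lowest ratio.

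Myocd (NCBI gene 214384, chromosome 11 from 65173608 to 65269989) encodes myocardin, a coactivator of Srf in cardiac and smooth muscle. It had 24 and 81 reads and a TPM of 0.121 and 0.368, a ratio of 3.06 (1.92 to 5.04). Its broadly expressed relatives differed little, with Mrtfa at 13.9 and 14.1 and Mrtfb at 10.03 and 9.11. Myocd therefore made up 0.502% and 1.57% of the TPM of these 3 coactivators. Srf itself, named here although outside the naming rule, was at 23.8 and 22.2.

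By the rule for differentially expressed genes in the study's methods, a fold above 2 and a TPM of 10 or more in either library, 4 of the 10 members could be called. Of these, 1 was called higher in the E14-Sox2TA/WT library, Tagln, and 0 were called lower. Over all 11578 genes that passed the filter, 10.8% (1253) were called higher and 18.7% (2167) lower on TPM. The study reports fewer genes in each direction for its teratomas, and the reason was not tested. On FPKM the background shares were 13.7% and 14.3%, and the member called was again Tagln. Among the 4, Des passed the filter through the E14 library only, and Tagln passed it in both. With a TPM of at least 1, 5 of 8 members were higher (Actg2, Myh11, Mylk, Tagln and Cnn1) and 0 lower, against 19.3% and 18.9% of all genes. Myh11 passed that filter only through the library in which it was higher. Without a filter, 7 of 10 were higher, now with Lmod1 and Myocd, and 0 lower, against 31.4% and 20.6% of all genes with a TPM above 0. When the whole counting interval had to lie beyond 2-fold, 4 of 10 were higher, namely Actg2, Mylk, Tagln and Lmod1, and 0 lower, against 14.8% and 11.3% of the same genes. These shares are descriptions, and no test was made between the members and other genes.

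**Figure D3:**
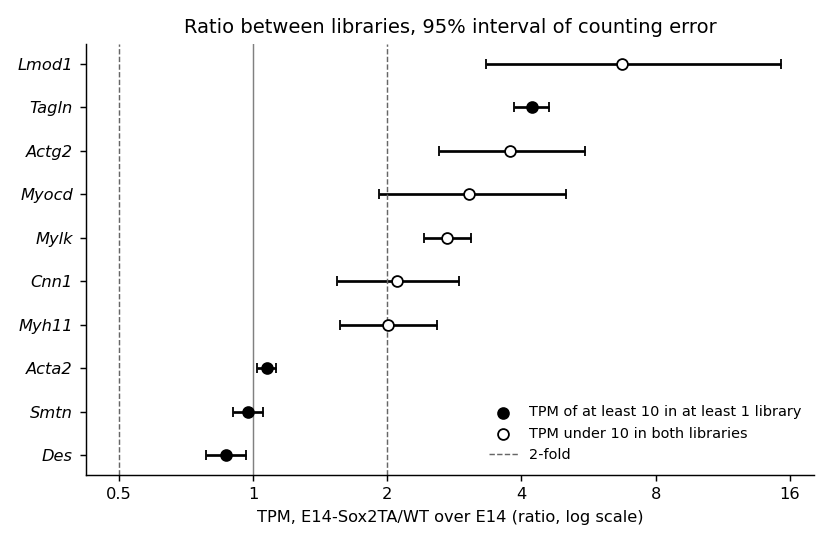
Ratio of TPM, E14-Sox2TA/WT over E14 (log scale), for each contractile gene, with 95% intervals of counting error, filled where the TPM reached 10 in at least 1 library and open where it did not. Dashed lines mark 2-fold in each direction, and the intervals of Lmod1, Tagln, Actg2 and Mylk lie wholly above it while those of Acta2, Smtn and Des lie near 1.

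On the log2 scale with 1 added to each TPM, the members had a median ratio of 0.50 and a range from -0.18 for Des to 2.004 for Tagln. Over the 4 members that passed the filter the median was 0.03, against -0.18 for all genes that passed it. This scale understates the difference of low genes, and 6 of the members are low. The genes with the highest levels and those with the highest ratios were different members, apart from Tagln.

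The scaling moved Smtn across 1-fold, Des up to 1-fold and Cnn1 across 2-fold. Across 6 ways to scale the libraries, 8 members lay above 1-fold in each. Of all genes with reads, 15701 lay above and 13444 below 1-fold on TPM. Smtn ranged from 0.977 to 1.14 and Des from 0.868 to 1. Tagln ranged from 4.21 to 4.85, Actg2 from 3.76 to 4.32 and Acta2 from 1.07 to 1.26. Cnn1 ranged from 1.93 to 2.42, and lay below 2-fold on counts scaled by TMM or median-of-ratios factors.

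**Figure D4:**
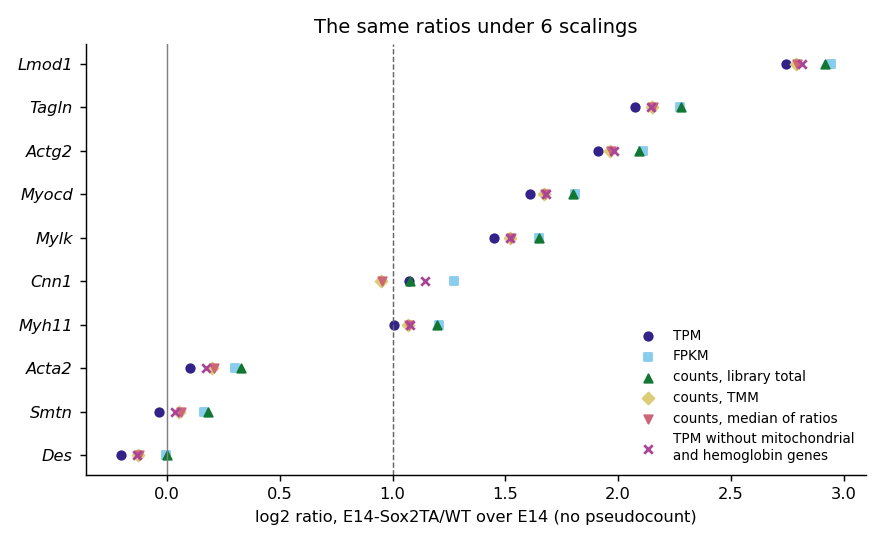
log2 ratio of each contractile gene, E14-Sox2TA/WT over E14, without a pseudocount, under 6 scalings of the libraries, with 2-fold dashed at 1. Deposited TPM gives the lowest value for 9 of the genes and TMM-scaled counts for Cnn1, and the order of the genes from Acta2 to Lmod1 differs only between Myh11 and Cnn1.

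The other contractile and cytoskeletal genes of smooth muscle lay on both sides of 1-fold. Of 25 genes, all with a TPM of at least 1, 14 lay above and 11 below 1-fold, with a median log2 ratio of 0.05. By the fold rule 2 of the 19 that passed the filter were higher and 1 was lower. Over all genes past the filter the shares were 10.8% and 18.7%. Myl6, the essential light chain also made outside muscle, was at 1045 and 1064, Tpm4 at 294 and 322, and Tpm1 at 218 and 296. Ppp1r14a, which inhibits myosin light chain phosphatase in smooth muscle, went from a TPM of 5.25 to 20.1, 3.82-fold higher (2.93 to 5.06). Ppp1r12b, a targeting subunit of that phosphatase, was 3.49-fold lower (3.21 to 3.79), at 10.7 and 3.07. The third gene past the rule, Ppp1cb, the catalytic subunit, was at 63.5 and 138.6, and is named because it passed. The 3 phosphatase genes that passed the rule thus did not share a direction. Ppp1r14a and Ppp1r12b each passed the filter only through the library in which they were higher.

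Channels, receptors and membrane genes of smooth muscle showed no common direction either. Of 24 genes, 12 lay above and 11 below 1-fold, and Pln had 0 reads in both libraries. Of the 7 that passed the filter, 2 were called higher and 1 lower, against 10.8% and 18.7% of all genes past it. Ednrb, an endothelin receptor also found in astrocytes and neural crest, was at 190.1 and 48.2, Cav1 of caveolae at 47.8 and 64.6, and Ednra at 18.3 and 22.4. Itga8, an integrin subunit abundant in smooth muscle, was 2.95-fold higher (2.66 to 3.28), at 3.41 and 10.1. Pde5a, which degrades cyclic GMP and is named because it passed the rule, was at 6.47 and 14.1. Both reached a TPM of 10 in E14-Sox2TA/WT only.

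Among 22 transcription factors of smooth muscle and its mesenchyme, 13 lay above and 9 below 1-fold, with a median log2 ratio of 0.29. By the fold rule, 2 of 10 were higher and 3 lower, against 10.8% and 18.7% of all genes past the filter. Klf4, which opposes the contractile state in vascular smooth muscle, was at 6.71 and 20.8, and Tcf21, a factor of visceral mesenchyme named because it passed the rule, at 3.84 and 11.7. Both passed the filter only through E14-Sox2TA/WT, and Tcf21 is counted again among the fibroblast genes. The lower genes were Hey2 at 13.6 and 4.35, Zeb1 at 45.3 and 18.6, and Elk1, a partner of Srf, at 24.6 and 9.93, of which Hey2 and Elk1 passed only through E14. Meis2 was at 47.2 and 28.4.

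**Figure D5:**
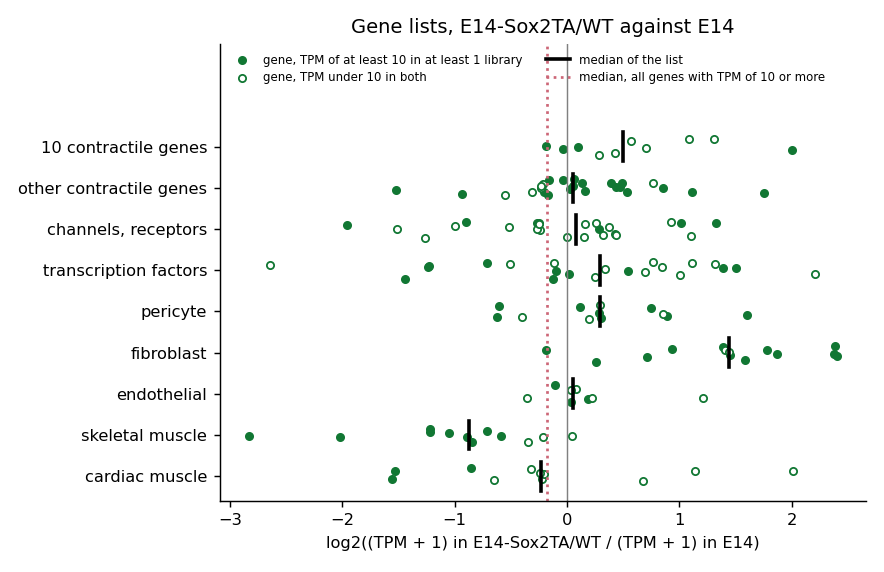
log2 ratio, E14-Sox2TA/WT over E14 with 1 added to each TPM, of every gene in 9 lists, filled where the TPM reached 10 in at least 1 library, with the median of each list as a bar and that of all genes past the filter dotted at -0.18. Fibroblast genes lie furthest to the right and skeletal muscle genes furthest to the left, with the contractile genes between.

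Genes of other cell types that make some of these proteins were read alongside. Over all genes past the filter, 10.8% were called higher and 18.7% lower. Of 14 fibroblast genes, 13 lay above 1-fold, and 8 of the 12 past the filter were called higher and 0 lower. Of the 8, Dpt, Mfap5, Tcf21 and Thy1 passed the filter only through E14-Sox2TA/WT, where they were high. The list had a summed TPM of 747 in E14 and 1809 in E14-Sox2TA/WT. Col3a1 was at 172 and 472, Dcn at 232 and 382, Col1a2 at 71.6 and 248.8, Mfap5 at 6.56 and 38.4, and Thy1 at 9.80 and 56.2. Pericyte genes summed to 247 and 339, with 9 of 12 above 1-fold and 1 of 8 called higher, Anpep at 4.07 and 14.4, which passed only through E14-Sox2TA/WT. The others named were Vtn at 99.2 and 167, Mcam at 37.8 and 46.7, and Rgs5 at 19.5 and 36.9. Endothelial genes summed to 93.4 and 100.4, with 6 of 8 above and 2 below 1-fold. Past the filter 0 of 3 were called, with Pecam1 at 27.6 and 31.6, Cdh5 at 21.1 and 19.5, and Emcn at 22.6 and 23.2. The largest difference of this list was in Tek, under the filter in both libraries, at 2.21 and 6.44.

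Striated muscle genes lay mostly below 1-fold. The share of all genes past the filter that was called lower was 18.7%. Of 12 skeletal muscle genes, 11 lay below 1-fold and 5 of 9 were called lower, 3 of them past the filter only through E14, and their summed TPM was 401 and 208. Mylpf was at 185 and 112, Tnnt3 at 34.3 and 22.4, and Tnni2 at 34.2 and 14.1. Of 12 cardiac genes, 9 lay below 1-fold. They summed to 247.5 and 112, with 2 of 4 called lower, Actc1 and Myl4, the latter at 90.05 and 30.4, and Tnnc1 at 32.3 and 17.4. Of the 8 cardiac genes under a TPM of 10 in both libraries, 3 were more than 2-fold higher and 1 more than 2-fold lower. Over all genes with any reads, at any TPM, these shares were 31.4% and 20.6%. Past the filter they were 10.8% and 18.7%. Genes under it, the like set for these 8, therefore had shares above 31.4% and 20.6%. The 3 higher cardiac genes were Myl7 at 0.771 and 6.14, Myh6 at 1.16 and 2.45, and Myl2 with 0 and 24 reads. The interval of Myh6, 1.76 to 2.54, spans 2-fold. Nkx2-5, the lower gene, had 22 and 12 reads and was 2.145-fold lower (1.02 to 4.76). None of these lists was at 0 in either library. Their part in the values of Acta2, Tagln, Des and the other members was not tested. The members lie on 6 chromosomes, whose median log2 ratios relative to all genes ranged from -0.02 to 0.06.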

How the data were processed

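PolyA RNA of 1 E14 and 1 E14-Sox2TA/WT teratoma library was sequenced. The labels give teratoma as the tissue, while their protocol speaks of a stem cell line. The submitters' processing notes name bcl2fastq 2.20.0, Trimmomatic, HISAT2 2.1.0 and StringTie 2.1.3b, without their roles, and the builds hg19 and mm10. The authors deposited read counts per gene, not normalized, and FPKM and TPM, which are scaled for length and depth, on mm10 with RefSeq transcripts. Of 45777 gene identifiers, 45679 matched RefSeq genes of GRCm38, the same build.

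From these values TPM ratios were computed, with exact intervals of the counts multiplied by the ratio of TPM fold to count fold. Genes at 0 in 1 library took the median of that factor. The log2 ratios had a pseudocount of 1. No test was run. The members and lists were chosen with earlier results of these data known. In lists other than the members, the 3 genes of highest TPM and the 2 with the largest ratio past the filter are named, with all actins and all paralogs with a TPM of at least 1. Overlaps and stretches of 50 nt came from GENCODE M21 transcripts. The relaxed CArG form was added after seeing the data. Other settings tried were the TPM filter, the pseudocount, the fold, FPKM in place of TPM, library totals, edgeR TMM and median-of-ratios factors, centring and transcript length. The scripts were tested on simulated data. edgeR 4.0.16 ran in R 4.3.3, and the rest in Python 3.11.15 with scipy 1.17.1, pandas 2.3.3 and numpy 2.4.6. Protein sequences were not used here.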

Additional observations from a re-analysis of the deposited data

How the results depend on the processing

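No paired analysis was possible because each group has 1 library, and for the same reason no library could be left out. The number of members called higher, 1 under the study's rule, was 5 at a minimum TPM of 1, 7 without a filter and 4 where the whole counting interval had to lie above 2-fold, an alternative chosen after seeing the data. These settings test more genes. It was 1 where both libraries had to reach a TPM of 10, at a fold above 1.5 or 3, and under each other scaling. The number called lower was 0 in every setting run. The median log2 ratio of the members, 0.50, ranged from 0.03 over members with a TPM of at least 10 to 1.05 with a pseudocount of 0.1. It was 0.83 after a trend with transcript length was subtracted, a length being known for 94.25% of the genes that reached a TPM of 1, and 0.43 without Tagln, also chosen after seeing the data. Single members had 80 values under these settings, of which 54 lay within counting error and 26 did not. A reversal was looked for only in Tagln, the 1 member called, and 0 were found. Smtn changed side of 1-fold in some settings. The highest ratio of Des was 1, on read counts scaled by library total. Depth limits Lmod1, Myocd and Actg2 most, with 9, 24 and 37 reads in the E14 library.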

Other observations

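Of the 22 transcription factors, 12 had a TPM under 10 in both libraries and so fell outside the fold rule. Of these 12, 7 were more than 2-fold higher in E14-Sox2TA/WT (Gata6, Foxf1, Tbx18, Barx1, Nkx3-2, Hand2 and Hic1) and 1, Nkx2-3, was more than 2-fold lower. Over all genes with any reads, at any TPM, 31.4% were more than 2-fold higher and 20.6% more than 2-fold lower. Among genes past the filter these shares were 10.8% and 18.7%. Genes under the filter, the like set for these 12 factors, therefore had shares above 31.4% and 20.6%. These factors are named after their values were seen. Gata6, a factor of endoderm and smooth muscle mesenchyme, had 56 reads in E14 and 596 in E14-Sox2TA/WT, at a TPM of 0.718 and 6.96, 9.69-fold higher (7.36 to 13.0). Foxf1, a factor of gut mesenchyme, had 103 and 384 reads, 3.35-fold higher (2.69 to 4.21). Nkx2-3, a factor of midgut and spleen mesenchyme that is also expressed elsewhere, had 480 and 38 reads, 14.1-fold lower (10.1 to 20.2). Barx1, Hic1, Hand2 and Tbx18 were 5.19-fold (2.29 to 13.8), 2.58-fold (2.27 to 2.94), 2.54-fold (1.87 to 3.49) and 2.36-fold (2.07 to 2.69) higher. Nkx3-2 had only 6 and 16 reads and was 2.26-fold higher, with an interval of 0.840 to 7.055 that includes 1. Each value rests on 1 library per group.

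For Cnn1 the deposited scales differed more than for the other members, with a log2 ratio of 1.27 on FPKM and 1.08 on read counts scaled by library total, against 2.27 and 2.28 for Tagln. The cause was not tested.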
